A study of Mus musculus with 6 samples.

Results

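The genes described here encode the enzymes of cholesterol and fatty acid synthesis and the proteins that regulate them, 29 genes chosen by name from the 17933 genes of the deposited table. All 29 have a row, and all 29 reached the level set for testing, a mean of at least 1 FPKM (fragments per kilobase of transcript, scaled to the number of fragments sequenced) over the 6 samples. RNA was sequenced from whole kidneys of male wild-type C57BL/6 mice, 6 to 8 weeks old. In the stone group (3 samples), glyoxylic acid, a precursor of oxalate, was injected into the peritoneum at 120 mg/kg daily for 12 days to form calcium oxalate crystals in the kidney. In the control group (3 samples), mice received saline of equal volume. The title of the series names EZH2 and kidney fibrosis, and the design asks which genes differ between the groups.

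Cholesterol is built from acetyl-CoA through mevalonate and isoprenoid units, which are joined to squalene, closed to lanosterol and trimmed to cholesterol. The membrane-bound transcription factors SREBP1 and SREBP2 are held in the endoplasmic reticulum by SCAP and the INSIG proteins when sterol is plentiful. When sterol falls, they are cut free and switch on most genes of this pathway together, SREBP2 mainly those of sterols and SREBP1 mainly those of fatty acids. Kidney tubules make cholesterol themselves, and cells that repair or divide need it for new membrane.

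In stone kidneys the cholesterol genes did not move as a block. Neighbouring enzymes changed in opposite directions: genes of squalene synthesis and ring closure were higher, and the genes of HMG-CoA synthase, isopentenyl diphosphate isomerase, lanosterol demethylase and the late sterol isomerase and desaturase were lower. In limma on log2(FPKM + 1), 13 of the 29 passed as higher in the stone group and 7 as lower, at a Benjamini-Hochberg adjusted p below 0.05 over all 12319 genes tested. That is 44.8% of the members higher, against 43.5% of all genes tested, and 24.1% lower, against 13.9% (57.4% of all genes in either direction). The share of higher members was thus near that of all genes. The median log2 fold change was 0.12 over the members and 0.21 over all genes tested. The median size of the change, sign ignored, was 0.63 over the members and 0.32 over all genes tested. The lowest stone value exceeded the highest control value for 13 members (49.8% of all genes tested), and the reverse held for 7 (16.5%), against 66.3% of all genes with no overlap in either direction.

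The median change of all genes was itself above 0, so each call was also read after other scalings of the samples. Median-of-ratios scaling moved the median log2 fold change of all genes by -0.22, quantile normalization by -0.24 and equal FPKM sums by 0.24. Under median-of-ratios scaling 10 members were higher (22.5% of all genes tested) and 7 lower (26.2%). Quantile normalization gave 10 higher (22.4% of all genes) and 7 lower (25.2%), and equal FPKM sums gave 19 higher (68.5%) and 5 lower (6.47%). Called in the same direction as deposited and in all 3 scalings were 10 higher members (18.2% of all genes tested) and 5 lower ones (6.47%). The 10 were Pmvk, Fdps, Fdft1, Sqle, Lss, Msmo1, Srebf1, Srebf2, Insig1 and Scd2. The 5 were Hmgcs1, Idi1, Cyp51, Ebp and Sc5d. Each of these 15 calls also held in the other 10 alternatives run, which changed the pseudocount, the filter or the block, or left samples out.

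The promoters of 3 genes that were lower and 2 that were higher are shown so that opposite changes can be read against the sequence at each gene's start. Each is 300 bases, from 250 before to 50 after the start, from RefSeq on GRCm38.p6, written 5′ to 3′ on the gene's strand. Capitals mark 3 motifs searched on both strands: the sterol regulatory element TCACNCCAC bound by SREBPs, the CCAAT box bound by NF-Y, and the GC box GGGCGG bound by Sp1. No pair of these motifs overlaps in the sequences shown. Only the exact letters were searched, N being any base, so variants of a motif stay in lower case. Hmgcs1 (lower) lies at chr13:119690101-119690400 on the plus strand, Idi1 (lower) at chr13:8885356-8885655 on the plus strand and Cyp51 (lower) at chr5:4104648-4104947 on the minus strand. Msmo1 (higher) lies at chr8:64733529-64733828 on the minus strand and Lss (higher) at chr10:76531355-76531654 on the plus strand.
Hmgcs1: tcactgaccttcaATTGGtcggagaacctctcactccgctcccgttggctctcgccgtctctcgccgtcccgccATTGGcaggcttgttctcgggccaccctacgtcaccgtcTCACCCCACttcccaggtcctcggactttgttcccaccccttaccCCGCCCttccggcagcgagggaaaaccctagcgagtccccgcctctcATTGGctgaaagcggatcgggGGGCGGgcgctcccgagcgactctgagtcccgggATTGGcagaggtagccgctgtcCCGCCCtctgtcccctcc
Idi1: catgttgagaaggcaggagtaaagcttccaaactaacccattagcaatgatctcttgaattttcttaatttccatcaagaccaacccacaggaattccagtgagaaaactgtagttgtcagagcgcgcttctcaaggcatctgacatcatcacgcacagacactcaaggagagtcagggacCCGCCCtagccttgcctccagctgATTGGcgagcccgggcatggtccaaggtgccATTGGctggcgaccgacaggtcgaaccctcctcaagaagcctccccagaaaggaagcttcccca
Cyp51: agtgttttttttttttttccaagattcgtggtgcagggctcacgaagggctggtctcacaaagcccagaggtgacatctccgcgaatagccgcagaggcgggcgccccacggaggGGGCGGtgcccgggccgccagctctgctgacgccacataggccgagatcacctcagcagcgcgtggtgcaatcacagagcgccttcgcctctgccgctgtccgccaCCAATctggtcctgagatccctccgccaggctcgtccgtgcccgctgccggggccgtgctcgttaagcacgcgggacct
Msmo1: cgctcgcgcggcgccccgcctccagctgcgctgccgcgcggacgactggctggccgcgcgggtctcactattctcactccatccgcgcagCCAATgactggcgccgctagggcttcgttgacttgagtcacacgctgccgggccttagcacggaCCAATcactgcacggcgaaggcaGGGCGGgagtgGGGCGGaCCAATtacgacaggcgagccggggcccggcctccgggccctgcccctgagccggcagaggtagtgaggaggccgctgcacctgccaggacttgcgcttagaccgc
Lss: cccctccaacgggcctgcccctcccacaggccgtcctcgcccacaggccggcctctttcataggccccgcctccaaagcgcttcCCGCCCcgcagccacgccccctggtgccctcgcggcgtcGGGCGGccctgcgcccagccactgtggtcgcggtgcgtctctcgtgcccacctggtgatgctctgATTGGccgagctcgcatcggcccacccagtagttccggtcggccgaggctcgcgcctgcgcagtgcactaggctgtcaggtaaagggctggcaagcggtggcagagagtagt

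A promoter was found for 23 of the 29 members, and none for Scd1, Scd2, Fdps, Stard4, Sqle and Fdft1. Of the 13 higher members, 8 could therefore be searched. The CCAAT box was present in 6 of the 7 lower members and in 7 of the 8 higher members with a promoter. It was also in 6 of the 8 uncalled members with one, against 41.1% of all 27025 genes with a promoter. The GC box was present in 7 of the 7 lower members, 6 of the 8 higher ones and 6 of the 8 uncalled ones, against 38.2% of all genes. The exact letters of the sterol regulatory element were in the Hmgcs1 window only, of 23 members, 137 to 129 bases before the start, against 1.44% of all genes. A match is a description of the letters and not a measured binding site. A window without a match is likewise not shown to lack a site, since variants were not searched.

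Several facts about the samples bear on what follows. FPKM sums ran from 609705 to 613885 in stone samples and from 711768 to 758514 in control samples. Kap, an androgen-driven gene of the proximal tubule and the most abundant gene in the table, had 7250.31 to 13769 FPKM in stone samples and 144880 to 175599 FPKM in control samples. Kidney markers were present throughout, with Umod of the thick limb at 936 to 1713 FPKM in stone samples and 1524 to 1749 FPKM in control samples. Of 12 proximal tubule markers, 9 fell, and the sum of the 11 without Kap was 5355 to 6335 FPKM in stone samples and 9310.4 to 10205 FPKM in control samples. Of 11 tested macrophage markers, 10 rose, with sums of 236 to 576 FPKM in stone samples and 76.5 to 84.0 FPKM in control samples. All 7 tested markers of dividing cells rose, with sums of 29.9 to 40.3 FPKM in stone samples and 3.54 to 5.09 FPKM in control samples. All 8 tubule injury markers rose, with sums of 1792 to 2379 FPKM in stone samples and 288 to 352 FPKM in control samples. Of all genes tested, 43.5% were called higher and 13.9% lower. In whole tissue, fewer cells of a type and less RNA per cell cannot be told apart. The part of these cell markers in the changes below was not tested. The adrenal cortex, which draws heavily on cholesterol, was little represented: its markers summed to 3.16 to 4.59 FPKM in stone samples and 1.99 to 2.83 FPKM in control samples, and Cyp11a1, the first enzyme of steroid synthesis, was listed at 0 in all stone samples and at most 0.09 FPKM in control samples. Of its 2 tested markers, Star was not called and Akr1b7 was called higher (log2 fold change 0.52, adjusted p = 0.0227, limma), a call lost after median-of-ratios scaling.

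Stone sample 3 and control sample 2 stood apart from the other samples in fat cell transcripts. The 9 adipocyte markers summed to 29.2, 27.0 and 441 FPKM in stone samples 1 to 3, and to 67.4, 315 and 49.6 FPKM in control samples 1 to 3. Adipoq, which encodes the adipocyte hormone adiponectin, had 22.3 FPKM in stone sample 3 and 16.9 FPKM in control sample 2, and at most 0.07 FPKM in the other 4. Plin1, the adipocyte lipid droplet coat gene, was listed at 0 in those 4 samples. Of the 8 tested adipocyte markers, 0 were called between the groups by limma, and 0 had an unadjusted p below 0.05. Car3, a carbonic anhydrase gene, made up most of the sum in the other samples, with 22.2 FPKM in stone sample 1 and 59.9 FPKM in control sample 1, for example. It was called lower without the pair (log2 fold change -1.20, adjusted p = 0.00632, limma) and without stone sample 3 alone. The fatty acid genes below are therefore given with and without this pair of samples. Without the pair, a comparison chosen after seeing the data, 12 members were higher (29% of all genes tested) and 5 lower (10.1%).

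The plot of every member's level orders the genes by their step in the pathway.

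**Figure D1:**
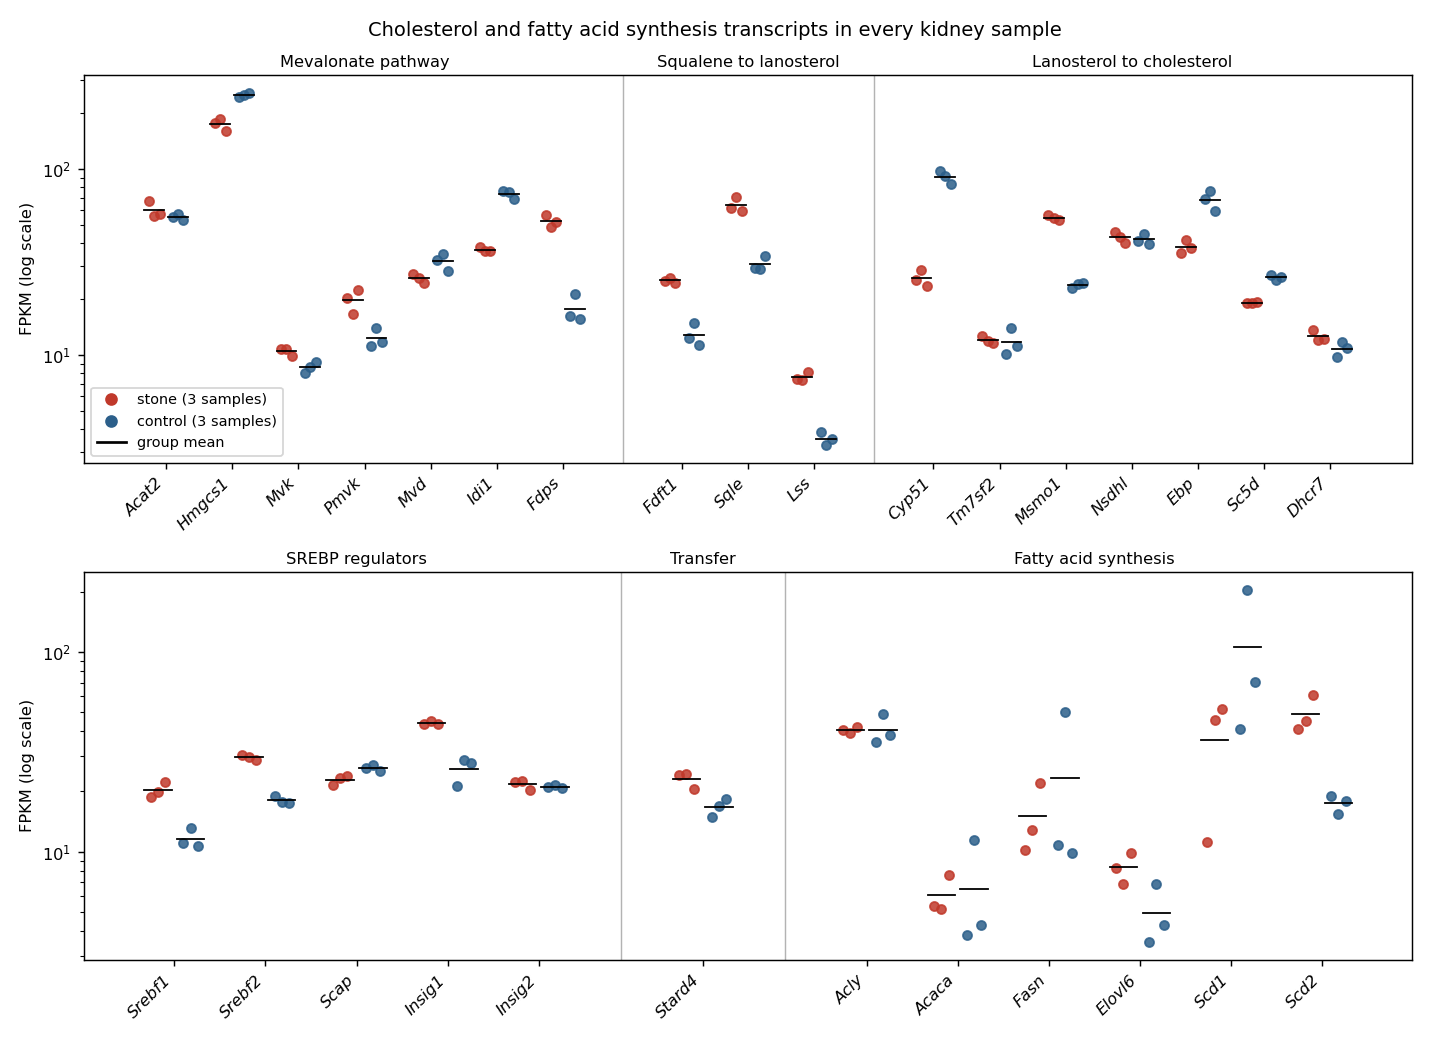
FPKM (log scale) of the 29 genes in 3 stone samples (red, left of each pair) and 3 control samples (blue), grouped by role, with bars at the group means. The groups separate in opposite directions for Idi1 and Fdps, which are neighbours in the pathway, and for Cyp51 and Msmo1, while Fasn and Scd1 scatter widely within groups.

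The early mevalonate steps were mixed. Hmgcs1, which joins acetoacetyl-CoA with acetyl-CoA and was the most abundant member in both groups, had 177, 187 and 159 FPKM in stone samples 1 to 3 and 244, 248.82 and 258 FPKM in control samples 1 to 3. Every stone value lay below every control value, and the log2 fold change was -0.52 (SE 0.0733, adjusted p = 0.0011, limma). Hmgcs1 shares 557 exon bases, 12.1% of its own, with the annotated gene Gm48342 on the opposite strand. Acat2, the cytosolic thiolase that makes acetoacetyl-CoA, had 60.2 ± 6.22 FPKM in stone and 55.3 ± 1.93 FPKM in control kidneys (SD, n = 3 each) and did not pass (adjusted p = 0.254, limma). With equal FPKM sums Acat2 was called higher (log2 fold change 0.39, adjusted p = 0.00307, limma). Its near copy Acat3, 97.7% identical over 1477 bases, averaged 29.0 FPKM in stone and 7.61 FPKM in control kidneys, and no source used here states how reads were split between the copies. Mvk, mevalonate kinase, had 10.5 ± 0.505 FPKM in stone and 8.60 ± 0.61 FPKM in control kidneys. It was called higher as deposited (log2 fold change 0.26, adjusted p = 0.0215, limma) but not after median-of-ratios scaling, where the change was 0.03 (adjusted p = 0.773, limma), nor after quantile normalization. The Mvk call was also lost without stone sample 1, stone sample 2 or control sample 1, and without stone sample 3 and control sample 2 together. Pmvk, the next kinase, had 20.2, 16.6 and 22.3 FPKM in stone samples and 11.2, 14.03 and 11.7 FPKM in control samples. The groups were separate for Pmvk, with a log2 fold change of 0.63 (adjusted p = 0.00447, limma).

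Of the 3 steps that make and join isoprenoid units, the first 2 were lower and the last was higher. Mvd, the decarboxylase that makes it, had 27.3, 25.9 and 24.5 FPKM in stone samples and 32.6, 34.8 and 28.4 FPKM in control samples. This small difference (log2 fold change -0.29, adjusted p = 0.0242, limma) was lost with equal FPKM sums, where it was -0.02 (adjusted p = 0.826, limma), and without stone sample 2, stone sample 3, control sample 1 or control sample 2, alone or with stone sample 3. Idi1, the isomerase that acts on this product, had 38.1, 36.4 and 36.3 FPKM in stone samples and 76.3, 75.1 and 69.2 FPKM in control samples. Its mean in stone kidneys was 0.502 times that in control kidneys (log2 fold change -0.97, SE 0.0613, adjusted p = 4.57e-05, limma). Idi1 shares 323 exon bases, 9.2% of its own, with the annotated gene Gm48574 on the opposite strand. Fdps, which joins isoprenoid units to farnesyl diphosphate, had 56.6, 49.1 and 51.8 FPKM in stone samples and 16.2, 21.4 and 15.6 FPKM in control samples. Fdps showed the largest rise among the members, with a 2.96-fold higher mean (log2 fold change 1.53, SE 0.122, adjusted p = 0.000111, limma). Idi1 lies on chromosome 13 from 8885606 to 8892396 and Fdps on chromosome 3 from 89093588 to 89101967 (GRCm38.p6). Both genes have processed pseudogenes close to them in sequence, up to 100% identical over 684 bases for Idi1 and 98.9% over 1062 bases for Fdps, and the annotated gene Gm43738 is identical to Fdps over 929 bases. Their FPKM may depend on how such reads were assigned.

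All 3 genes from squalene to lanosterol rose (43.5% of all genes tested). Fdft1, squalene synthase, had 25.1, 26.1 and 24.4 FPKM in stone samples and 12.4, 14.9 and 11.4 FPKM in control samples. Each stone value lay above each control value (log2 fold change 0.92, adjusted p = 0.000348, limma). A processed pseudogene is 97.4% identical to Fdft1 over 1249 bases, so the FPKM of Fdft1 may depend on how reads were assigned. Fdft1 shares 774 exon bases with Ctsb on the opposite strand, the cathepsin B gene, and no source used here states whether the counting used strand. Ctsb had 481 ± 11.8 FPKM in stone and 425 ± 42.8 FPKM in control kidneys (SD, n = 3 each) and did not pass (adjusted p = 0.0986, limma), but was called higher after quantile normalization, with equal FPKM sums and without control sample 2. Sqle, the squalene epoxidase that is a control point of sterol synthesis, had 62.0, 71.0 and 59.8 FPKM in stone samples and 29.4, 28.9 and 34.3 FPKM in control samples (log2 fold change 1.04, adjusted p = 0.000181, limma). Lss, which closes the ring to lanosterol, had 7.41, 7.33 and 8.11 FPKM in stone samples and 3.86, 3.28 and 3.52 FPKM in control samples (log2 fold change 0.92, adjusted p = 0.000197, limma). The stone samples lay above the control samples for each of the 3. Their sum was 97.1 ± 6.42 FPKM in stone and 47.3 ± 1.75 FPKM in control kidneys (SD, n = 3 each).

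Between lanosterol and cholesterol, 1 of 7 genes rose (43.5% of all genes tested) and 3 fell (13.9%). Cyp51, the cytochrome P450 that removes the first methyl group of lanosterol, had 25.4, 28.6 and 23.6 FPKM in stone samples and 97.6, 92.1 and 83.0 FPKM in control samples. It showed the largest fall among the members called (log2 fold change -1.77, SE 0.0918, adjusted p = 2.12e-05, limma), and 0.698% of all genes tested had a change as low or lower. On the log2(FPKM + 1) scale, Cyp51 was the only called member at least 2-fold lower (1.99% of all genes tested), and 4 were at least 2-fold higher, namely Fdps, Sqle, Msmo1 and Scd2 (7.32%). By the ratio of mean FPKM, without the added 1, Lss was also past 2-fold, at 2.14. Msmo1, the methyl sterol oxidase that acts soon after Cyp51, had 56.8, 54.9 and 53.0 FPKM in stone samples and 23.1, 24.1 and 24.5 FPKM in control samples. Msmo1 rose by 1.17 on the log2 scale (SE 0.0577, adjusted p = 1.86e-05, limma). Cyp51 lies on chromosome 5 from 4080674 to 4104697 and Msmo1 on chromosome 8 from 64718123 to 64733578 (GRCm38.p6). Cyp51 shares 166 exon bases, 3.8% of its own, with Akap9 on the opposite strand, which had 7.5 ± 0.136 FPKM in stone and 6.91 ± 0.934 FPKM in control kidneys.

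The later trimming steps were lower or not called. Ebp, the sterol isomerase, had 35.5, 41.5 and 37.8 FPKM in stone samples and 68.8, 76.3 and 59.2 FPKM in control samples (log2 fold change -0.81, adjusted p = 0.000732, limma). Sc5d, the sterol desaturase that follows it, had 19.0, 19.0 and 19.3 FPKM in stone samples and 27.1, 25.5 and 26.4 FPKM in control samples (log2 fold change -0.44, adjusted p = 0.000698, limma). Both genes separated the groups. Dhcr7, the reductase that makes cholesterol, had 12.6 ± 0.822 FPKM in stone and 10.8 ± 0.957 FPKM in control kidneys (SD, n = 3 each) and did not pass (adjusted p = 0.075, limma). Nsdhl, a sterol dehydrogenase, had 43.1 ± 3.07 and Tm7sf2, a sterol reductase, 12.1 ± 0.505 FPKM in stone kidneys, against Nsdhl at 41.8 ± 2.83 and Tm7sf2 at 11.8 ± 1.94 FPKM in control kidneys. Tm7sf2 also shares 532 exon bases with Vps51 on its own strand. Neither Nsdhl nor Tm7sf2 passed (adjusted p = 0.672 for Nsdhl and 0.74 for Tm7sf2, limma). With equal FPKM sums Dhcr7, Nsdhl and Tm7sf2 were called higher, at log2 fold changes of 0.46, 0.31 and 0.30, while after median-of-ratios scaling they stood at -0.03, -0.21 and -0.19.

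Changes in pathway order, as log2 fold changes under both scalings, take both signs within the mevalonate and the lanosterol-to-cholesterol steps.

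**Figure D2:**
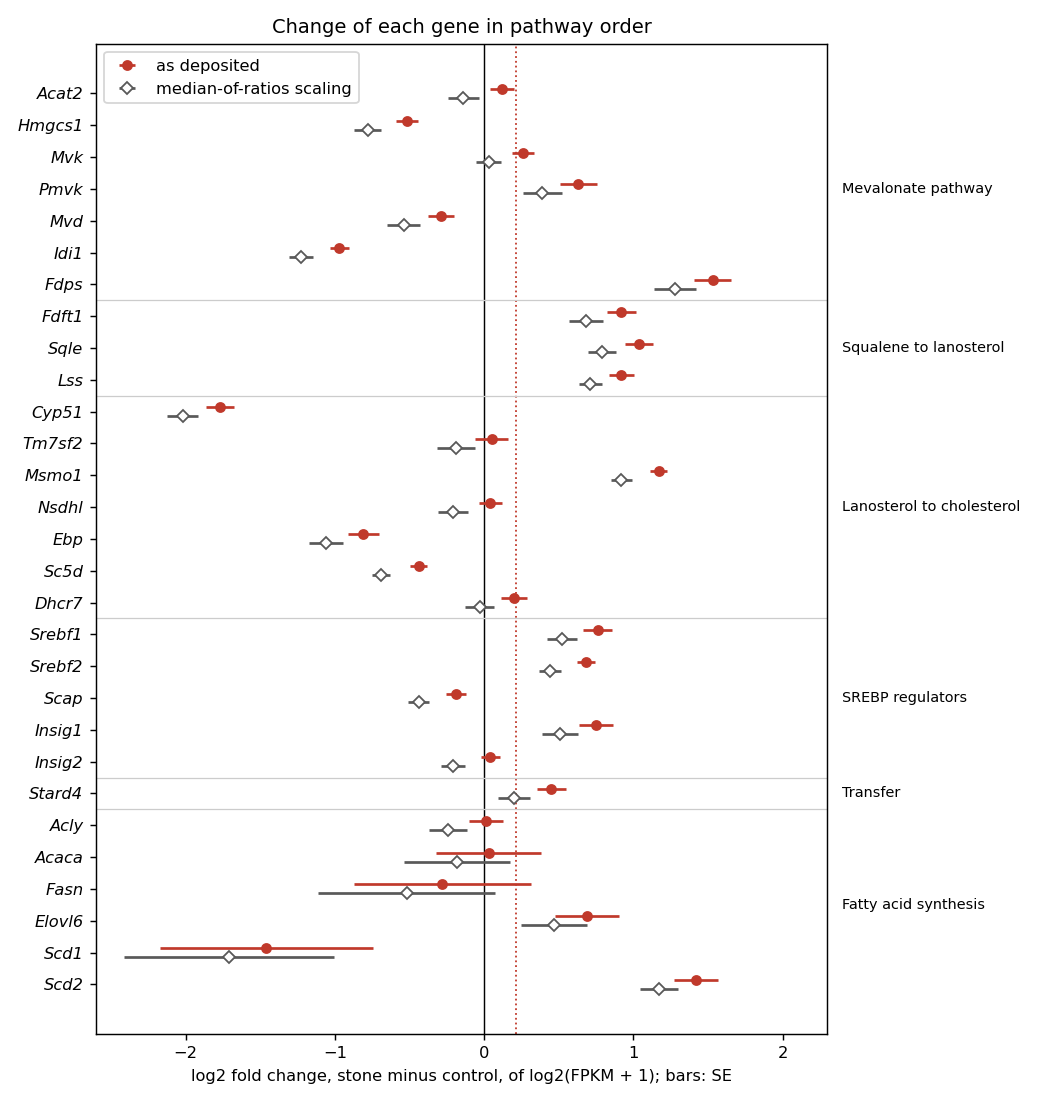
Log2 fold change of log2(FPKM + 1), stone minus control, with SE bars, for the 29 genes in pathway order, as deposited (red circles) and after median-of-ratios scaling (open diamonds); the dotted line is the median of all genes tested, 0.21. Cyp51 at -1.77 and Fdps at 1.53 mark the ends among called members, and Scd1, Fasn and Acaca have the widest error bars.

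Ratios between members within a sample do not change when each sample is scaled by a single factor, as in median-of-ratios scaling or equal FPKM sums, though quantile normalization can change them. The pairs below were picked after the values were seen and are given as a description. The Idi1 to Fdps ratio was 0.673, 0.740 and 0.701 in stone samples 1 to 3 and 4.72, 3.51 and 4.44 in control samples 1 to 3. The Cyp51 to Msmo1 ratio was 0.448, 0.522 and 0.445 in stone samples and 4.23, 3.82 and 3.38 in control samples. In both pairs the gene that was more abundant in every control sample was the less abundant one in every stone sample. The Hmgcs1 to Sqle ratio was 2.71 ± 0.122 in stone and 8.15 ± 0.566 in control kidneys (SD, n = 3 each).

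**Figure D3:**
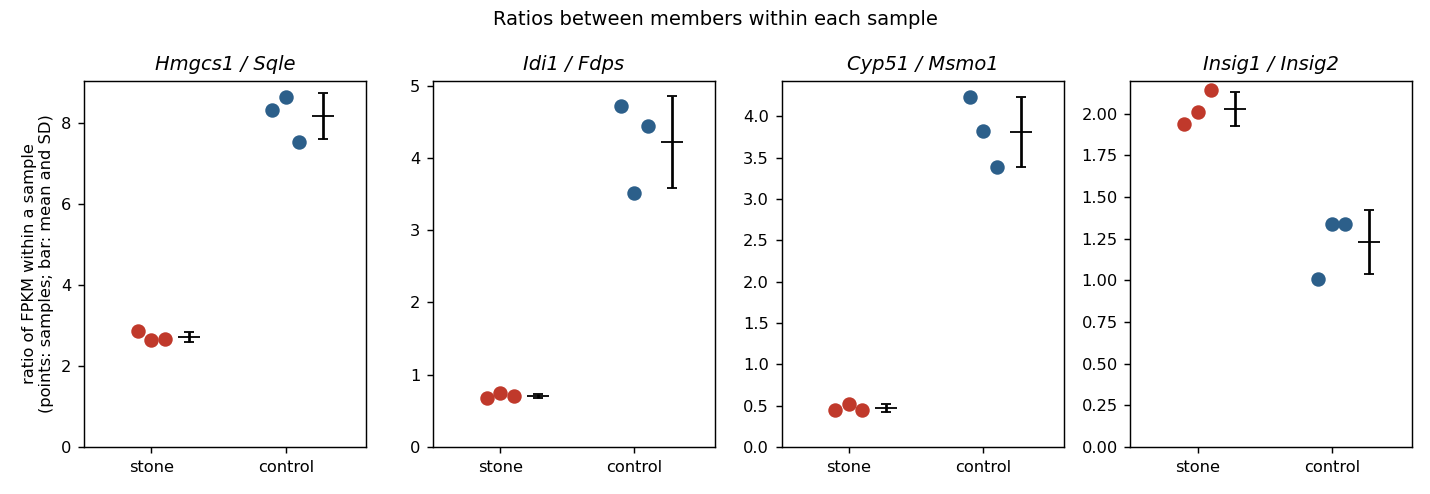
Ratio of the FPKM of a pair of members within each sample, for Hmgcs1 over Sqle, Idi1 over Fdps, Cyp51 over Msmo1 and Insig1 over Insig2, in stone samples (red, left) and control samples (blue); points are samples and bars the mean and SD. The first 3 ratios are lower in every stone sample than in any control sample, and the Insig1 to Insig2 ratio is higher.

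The order of abundance among the members changed with these shifts. FPKM are per length, so levels can be compared between genes. The levels of members with near copies, such as Idi1 and Fdps, may also depend on how reads were assigned. By mean FPKM, Cyp51 ranked 14 among the 29 in stone kidneys and 3 in control kidneys, and Idi1 ranked 11 in stone and 4 in control kidneys. Sqle ranked 2 in stone and 10 in control kidneys, Msmo1 ranked 4 in stone and 14 in control kidneys, and Fdps ranked 5 in stone and 18 in control kidneys. Hmgcs1 held rank 1 in both groups. The FPKM of all 29 members summed to 979, 1017 and 1005 in stone samples and 994, 1259 and 1015 in control samples, so the totals overlapped while their makeup differed.

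Among the regulators, both SREBP genes and Insig1 rose. Srebf2, which encodes SREBP2, had 30.3, 29.8 and 28.9 FPKM in stone samples and 19.1, 17.6 and 17.6 FPKM in control samples (log2 fold change 0.68, adjusted p = 0.000171, limma). Srebf1, which encodes SREBP1, had 18.7, 20.0 and 22.2 FPKM in stone samples and 10.97, 13.1 and 10.7 FPKM in control samples (log2 fold change 0.76, adjusted p = 0.000755, limma). The ratio of Srebf1 to Srebf2 was 0.685 ± 0.0767 in stone and 0.641 ± 0.0883 in control kidneys, a difference within the spread between samples. Insig1, an endoplasmic reticulum anchor that is itself an SREBP target, had 43.5, 45.4 and 43.5 FPKM in stone samples and 21.3, 28.8 and 27.8 FPKM in control samples (log2 fold change 0.75, adjusted p = 0.00142, limma). Its paralog Insig2, which does not depend on SREBP in the same way, had 21.8 ± 1.27 FPKM in stone and 21.1 ± 0.393 FPKM in control kidneys and did not pass (adjusted p = 0.621, limma). With equal FPKM sums Insig2 was called higher (log2 fold change 0.31, adjusted p = 0.00488, limma), and after median-of-ratios scaling it stood at -0.21 (adjusted p = 0.0684, limma). The Insig1 to Insig2 ratio was 1.94, 2.01 and 2.14 in stone samples and 1.01, 1.34 and 1.34 in control samples. These are transcript levels, and the cut and active SREBP proteins were not measured.

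Scap, the escort protein gene that carries SREBPs out of the endoplasmic reticulum, had 21.4, 23.4 and 23.9 FPKM in stone samples and 26.2, 27.2 and 25.3 FPKM in control samples. The groups did not overlap, but the call (log2 fold change -0.19, adjusted p = 0.0421, limma) was lost when any 1 sample other than control sample 3 was left out, and with equal FPKM sums the change was 0.08 (adjusted p = 0.312, limma). Scap shares 985 exon bases, 13.2% of its own, with the annotated gene 5830462I19Rik on the opposite strand. Stard4, a cytosolic sterol transfer protein gene, had 24.3, 24.4 and 20.6 FPKM in stone samples and 14.9, 16.8 and 18.3 FPKM in control samples. Stard4 was separate between the groups and called higher as deposited (log2 fold change 0.45, adjusted p = 0.00727, limma). After median-of-ratios scaling its change was 0.20 and was not called (adjusted p = 0.162, limma), nor was it after quantile normalization.

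In fatty acid synthesis, 2 of 6 genes rose (43.5% of all genes tested) and 4 did not pass. The genes that make palmitate, Acly, Acaca and Fasn, were highest, within each group, in the sample with adipocyte transcripts. Fasn, fatty acid synthase, had 10.2, 12.8 and 22.2 FPKM in stone samples and 10.7, 49.9 and 9.78 FPKM in control samples (log2 fold change -0.28, SE 0.591, adjusted p = 0.701, limma). Its highest values in each group were stone sample 3 and control sample 2, the samples with adipocyte transcripts. Without this pair the Fasn change was 0.14 (SE 0.128, adjusted p = 0.408, limma). Acaca, acetyl-CoA carboxylase, had 5.36, 5.16 and 7.60 FPKM in stone samples and 3.81, 11.4 and 4.26 FPKM in control samples, again highest in that pair. Its change was 0.03 (adjusted p = 0.94, limma) with all samples and 0.32 without the pair (SE 0.108, adjusted p = 0.0686, limma). Acaca also has a processed pseudogene 99.2% identical over 6118 bases. Acly, the citrate lyase that supplies acetyl-CoA, had 40.7 ± 1.38 FPKM in stone and 40.9 ± 6.91 FPKM in control kidneys and did not pass (adjusted p = 0.965, limma, and 0.284 without the pair). With equal FPKM sums Acly was called higher (log2 fold change 0.28, adjusted p = 0.0495, limma).

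The desaturase paralogs Scd1 and Scd2, which put a double bond into stearate and palmitate, differed from each other. Scd1 had 11.2, 45.7 and 51.8 FPKM in stone samples and 41.0, 206 and 70.4 FPKM in control samples, a wide and overlapping spread (log2 fold change -1.46, SE 0.715, adjusted p = 0.118, limma). Scd1 was highest, within each group, in stone sample 3 and control sample 2. Without these samples its change was -1.20 (SE 0.642, adjusted p = 0.186, limma). Scd2 had 41.2, 45.1 and 60.8 FPKM in stone samples and 19.1, 15.4 and 18.02 FPKM in control samples. Every stone value of Scd2 lay above every control value, the log2 fold change was 1.42 (SE 0.149, adjusted p = 0.000328, limma), and without the pair of samples it was 1.17 (SE 0.0834, adjusted p = 0.00117, limma). Within the groups, Scd2 was highest in stone sample 3 and lowest in control sample 2, the samples with adipocyte transcripts. Scd2 exceeded Scd1 in stone samples 1 and 3, and Scd1 exceeded Scd2 in stone sample 2 and in all control samples. The genes lie near each other on chromosome 19, Scd1 from 44394450 to 44407709 and Scd2 from 44293676 to 44306864 (GRCm38.p6), and are 95.5% identical over 623 bases of transcript, so some reads may be shared. Elovl6, which lengthens palmitate, had 8.34 ± 1.5 FPKM in stone and 4.89 ± 1.77 FPKM in control kidneys (SD, n = 3 each), and the groups met at 6.89 FPKM. A processed pseudogene is 97.4% identical to it over 805 bases. Elovl6 was called higher as deposited (log2 fold change 0.69, adjusted p = 0.0276, limma) and without the pair of samples (0.81, adjusted p = 0.0106, limma). The Elovl6 call was lost after median-of-ratios scaling (0.47, adjusted p = 0.115, limma), after quantile normalization, with no filter on low values, and without stone sample 1, stone sample 3, control sample 1 or control sample 3.

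**Figure D4:**
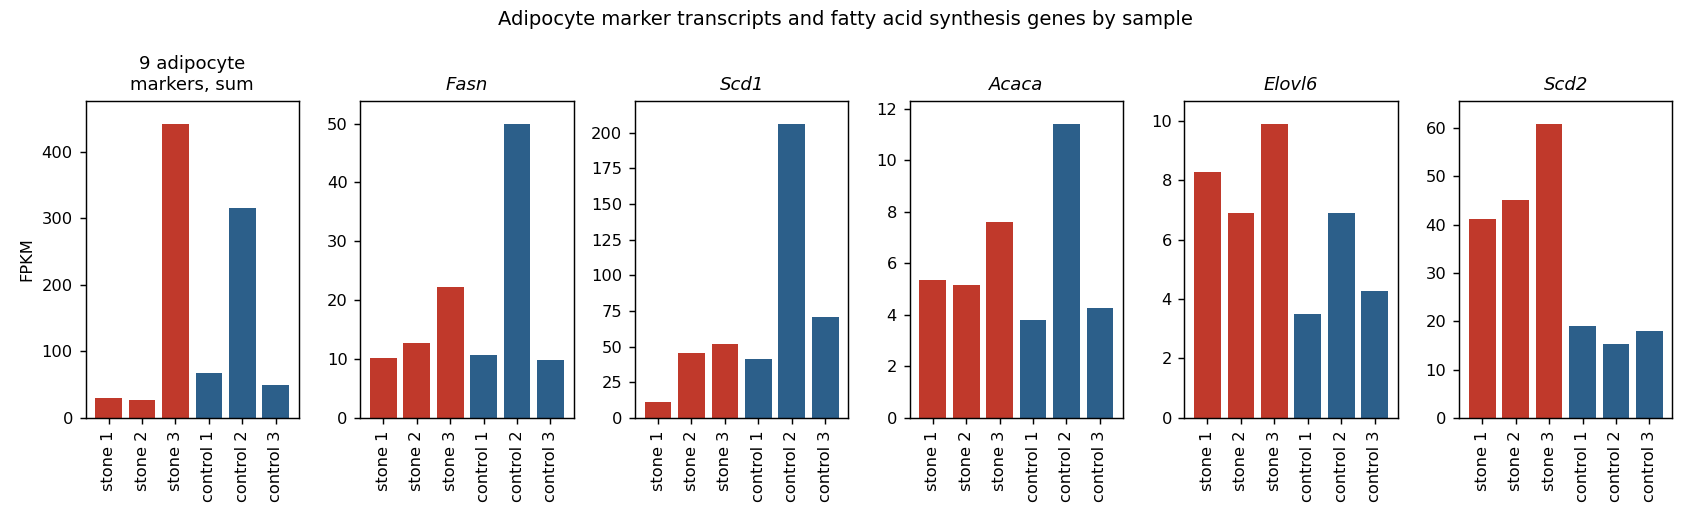
FPKM by sample of the summed 9 adipocyte markers and of Fasn, Scd1, Acaca, Elovl6 and Scd2, in stone samples 1 to 3 (red) and control samples 1 to 3 (blue). Stone sample 3 (441 FPKM) and control sample 2 (315 FPKM) hold the adipocyte transcripts and the highest Fasn, Scd1, Acaca and Elovl6 of their groups. Scd2 is higher in all 3 stone samples.

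The other genes around the pathway, taken from lists of related enzymes and transporters, also changed in both directions. Of 7 other tested sterol and acyl chain enzymes, 3 rose (43.5% of all genes tested) and 2 fell (13.9%). After median-of-ratios scaling 2 rose (22.5%) and 3 fell (26.2%). Hsd17b7, a sterol ketoreductase of the lanosterol-to-cholesterol steps, had 11.5 ± 0.613 FPKM in stone and 7.78 ± 0.453 FPKM in control kidneys (adjusted p = 0.00132, limma), a call lost after quantile normalization. Ch25h, which makes an oxysterol that represses SREBP cutting, had 8.17 ± 3.24 FPKM in stone and 0.953 ± 0.459 FPKM in control kidneys (log2 fold change 2.19, adjusted p = 0.000904, limma). Acat1, the mitochondrial thiolase of ketone metabolism, had a log2 fold change of -1.24 (adjusted p = 2.43e-05, limma).

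Farnesyl diphosphate, the product of Fdps, also feeds other products, and the genes of that branch were mixed. Of 11 tested genes of the isoprenoid branch, 3 rose (43.5% of all genes tested) and 4 fell (13.9%). After median-of-ratios scaling 0 rose (22.5%) and 4 fell (26.2%). Pdss1 and Pdss2, which build the side chain of ubiquinone, showed log2 fold changes of -0.77 and -0.58 (adjusted p = 0.000985 and 0.00116, limma). Rce1, a protease that trims prenylated proteins, rose by 0.37 as deposited (adjusted p = 0.00276, limma), a call lost after median-of-ratios scaling and quantile normalization. Of 18 other tested genes of fatty acid synthesis, 4 rose (43.5% of all genes tested) and 6 fell (13.9%). After median-of-ratios scaling 1 rose (22.5%) and 9 fell (26.2%). Me1, the malic enzyme that supplies NADPH, had 114 ± 1.13 FPKM in stone and 351 ± 17.1 FPKM in control kidneys (log2 fold change -1.61, adjusted p = 1.05e-05, limma). Acss2, the cytosolic acetyl-CoA synthetase, had 68.9 ± 6.86 FPKM in stone and 154 ± 4.71 FPKM in control kidneys (log2 fold change -1.15, adjusted p = 6.6e-05, limma), and the elongation enzyme gene Hacd2 fell by 0.91 (adjusted p = 5.84e-05, limma). Mid1ip1, which activates acetyl-CoA carboxylase, went the other way and rose by 1.36 (adjusted p = 0.000307, limma).

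Genes that process SREBPs gave no direction that held. Of 10 tested, 4 rose (43.5% of all genes tested) and 0 fell (13.9%) as deposited. With median-of-ratios scaling 0 rose (22.5%) and 5 fell (26.2%). Mbtps1 and Mbtps2, the proteases that cut SREBPs free, had log2 fold changes of 0.27 each in the deposited values (adjusted p = 0.0134 and 0.0207, limma) and of 0.03 and 0.06 after median-of-ratios scaling. The Mbtps2 call was also lost without stone sample 2, control sample 1 or control sample 2. Erlin1, an endoplasmic reticulum protein that binds the SREBP complex, showed 0.28 as deposited (adjusted p = 0.00991, limma) and 0.03 after that scaling. Of 12 tested genes of sterol uptake and transfer, 6 rose (43.5% of all genes tested) and 0 fell (13.9%). With median-of-ratios scaling 2 rose (22.5%) and 2 fell (26.2%). Scarb1, the HDL receptor gene, had 11.5 ± 2.69 FPKM in stone and 5.75 ± 0.45 FPKM in control kidneys (adjusted p = 0.0024, limma), and the lipoprotein receptor gene Lrp1 had 7.96 ± 2.20 FPKM in stone and 2.23 ± 0.619 FPKM in control kidneys (adjusted p = 0.00136, limma). Gramd1a, a sterol transfer protein gene, rose by 0.44, a call lost after median-of-ratios scaling (adjusted p = 0.0526, limma) and quantile normalization.

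Liver X receptors sense oxysterols and drive sterol export. Of 12 tested genes of these receptors, their targets and sterol esters, 4 rose (43.5% of all genes tested) and 3 fell (13.9%). After median-of-ratios scaling 4 rose (22.5%) and 4 fell (26.2%). Abca1, the sterol exporter gene, had 9.48 ± 0.407 FPKM in stone and 3.15 ± 0.896 FPKM in control kidneys (log2 fold change 1.36, adjusted p = 0.000463, limma). Apoe, the lipoprotein gene that macrophages also express, had 887 ± 173 FPKM in stone and 137 ± 21.4 FPKM in control kidneys (log2 fold change 2.68, adjusted p = 3.97e-05, limma). Smpdl3a, a phosphodiesterase gene, had 228 ± 29.2 FPKM in stone and 370.1 ± 16.5 FPKM in control kidneys (log2 fold change -0.70, adjusted p = 0.00102, limma). The macrophage marker sum was, like Apoe and Abca1, higher in the stone group, at 236 to 576 FPKM against 76.5 to 84.0 FPKM in control samples. Its part in the change of Apoe and Abca1 was not tested.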

How the data were processed

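Whole-kidney RNA of 3 stone and 3 control samples was measured. Reads were aligned with HISAT2 2.0.4 to GRCm38.p6, per the submitters' processing notes, and libraries kept strand through dUTP, per the labels' protocols. The authors deposited FPKM to 2 decimals, and no source used here states the counting program, annotation or strand setting. Absolute depth is unknown, so no counting intervals are given. In 53 genes whose low values were taken as 1 fragment, that value differed between samples by -0.03 to 0.05 log2 units, although the limit of 1.25 times used to pick them keeps this small.

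The 12319 genes that averaged 1 FPKM or more were compared on log2(FPKM + 1) with limma 3.58.1 in R 4.3.3 (eBayes with a trend, two-sided), with Benjamini-Hochberg adjustment over all of them and a threshold of 0.05. A fold change on this scale understates that of low genes. The members, gene lists and naming rule (all members; in other lists up to 3 called genes with the smallest p and the leading one against the majority; of each cell type the markers of highest level) were chosen with earlier results of these data known. The labels do not say that samples came from separate mice, so the p-values reflect the spread of these samples alone, which may be technical. An exact permutation test of 3 against 3 cannot go below p = 0.1. Alternatives changed the pseudocount, filter, scaling, block or samples. Transcripts of GENCODE M21 were compared with blastn 2.17.0, for matches of at least 200 bases and 90% identity. Positions are RefSeq's on GRCm38.p6.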

Additional observations from a re-analysis of the deposited data

How the results depend on the processing

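Of 377 member values recomputed under 13 alternatives, 317 kept both direction and call, 28 lost the call, 7 gained one and 25 changed sign. Over all genes, median-of-ratios scaling gave 2776 higher and 3222 lower, quantile normalization 2762 and 3108, and equal FPKM sums 8440 and 797, against 5356 and 1711 as deposited. The members' median log2 fold change of 0.116 became -0.136, -0.045 and 0.391 under these scalings, ran from 0.093 to 0.267 with 1 sample left out (highest without control sample 2), and was 0.278 without stone sample 3 and control sample 2. The members' median therefore has no direction that held across scalings. Sign changes of members touched uncalled values, except for Mvk and Scap. Under median-of-ratios scaling Acat2 stood at -0.14, Tm7sf2 at -0.19, Nsdhl at -0.21, Dhcr7 at -0.03, Insig2 at -0.21, Acly at -0.24 and Acaca at -0.18. After quantile normalization Mvk stood at -0.02, Tm7sf2 at -0.21, Nsdhl at -0.05, Dhcr7 at -0.06, Insig2 at -0.15, Acly at -0.09 and Acaca at -0.28. With equal FPKM sums Scap stood at 0.08. With 1 sample left out, Tm7sf2 ran from -0.04 to 0.16, Nsdhl from -0.01 to 0.09, Acly from -0.09 to 0.14, Acaca from -0.21 to 0.47 and Fasn from -0.68 to 0.44, and Fasn was 0.14 without both samples that hold adipocyte transcripts. The cause of these changes was not tested.

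Replicate numbers did not pair the samples: deviations of same-numbered samples correlated at 0.007, -0.22 and -0.04, and no sample correlated best with its own number. With the replicate block, 4861 genes were higher and 1517 lower, and 12 members were higher and 7 lower. Mvk and Scap lost their calls (limma, adjusted p = 0.0576 for Mvk and 0.085 for Scap) and Scd1 was called lower (log2 fold change -1.46, limma, adjusted p = 0.0135). Depth in counts is unknown, and 3 samples a group limit the precision of every value.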

Other observations

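Further transcripts stood out in the samples with adipocyte markers, and all were picked after their values were seen. Thrsp, a lipogenic gene of fat and liver, had 2.32, 2.46 and 20.6 FPKM in stone samples 1 to 3 and 0.76, 66.4 and 1.24 FPKM in control samples 1 to 3. Ucp1, the uncoupling protein of brown fat, had 0.05, 0.10 and 0.86 FPKM in stone samples 1 to 3, against 0, 37.0 and 0 FPKM in control samples 1 to 3. Control sample 2 thus held Ucp1 at a level that stone sample 3 did not, although Adipoq was at 22.3 FPKM in stone sample 3 and 16.9 FPKM in control sample 2.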
